A study of Homo sapiens with 12 samples.

Results

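A375 is an established line of human malignant melanoma cells. The comparison described here set A375 cells given etoposide together with rapamycin against A375 cells given etoposide alone. Its members were the 6 A375 libraries, 3 of each treatment, chosen by the cell line and treatment in their labels out of 12 libraries in the series. The other 6 came from SK-MEL-28, another melanoma line that received the same treatments. The study asked how a compound that induces autophagy alters the response of melanoma cells to etoposide. All 6 A375 libraries, the controls included, had received etoposide. Libraries of untreated cells or of cells with rapamycin alone were not analysed here, and the doses and times of the sequenced cultures are not given in the sources used here. Each library held RNA enriched for polyA tails, and the study describes the 3 libraries of a group as biological replicates of 1 line.

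Rapamycin binds the immunophilin FKBP1A, and the pair inhibits the kinase complex mTORC1. Active mTORC1 promotes translation, in particular of messages that begin with a terminal oligopyrimidine (TOP) tract, which encode ribosomal proteins and elongation factors. It also raises the activity of the hypoxia factor HIF1 and of the sterol and lipid regulators of the SREBP family, and it restrains autophagy and the lysosomal program. Etoposide traps topoisomerase II on DNA, which leaves double-strand breaks and activates p53 where that protein is intact.

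Total counts ran from 28189501 to 30388771 per library, and 18844 of 58307 named rows passed the filter on low counts. Values below are normalized counts, which are counts scaled to a common effective library size, and fold changes are on the log2 scale with their standard error, where a positive value is higher with rapamycin. A gene passed the test at an adjusted p under 0.05 and was called differentially expressed (DE) when its fold change was also over 1.5. The melanoma markers SOX10, S100A1 and S100B were present in every library, with 9654 to 16540 raw counts of SOX10, whereas the pigmentation markers PMEL, MLANA and DCT stayed at or under 66 and TYR at or under 6. The undifferentiated markers AXL, WNT5A, NGFR and EGFR were present, and the fifth of that list, SOX9, was low, at 14 to 28 raw counts. Of 15 markers of other cell types, 10 stayed at or under 18 counts in every library, and 2 of these, the muscle gene DES among them, were at 0 in all 6. The summed level of the 15 was 662 to 803 normalized counts with rapamycin and 894 to 993 without, nearly all of it from KRT14, LUM, DCN, PECAM1 and MYH11. Its part in the results was not tested.

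Many A375 genes differed between the treatments by a small amount. Of the genes tested, 5295 (28.1%) passed, 2691 (14.3%) higher and 2604 (13.8%) lower, and the median size of change among them was 0.36 on the log2 scale. The DE genes numbered 1109 (5.89%), 582 higher (3.09%) and 527 lower (2.8%). The split depended on the scaling, since with library totals 2215 genes passed higher and 3361 lower, and 469 and 658 were DE. Larger changes were more often decreases. A change of over 2-fold was found for 144 genes that rose and 228 that fell, and one of over 4-fold for 13 and 22. The groups did not overlap for 8024 genes (42.6%), of which 3989 were higher (21.2%) and 4035 lower (21.4%). The share that passed rose with the level of the gene, from 3.92% of the genes under 30 counts to 54.3% of those at 3000 counts or more, so a list of abundant genes starts from a higher base than 28.1%.

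The changes followed the base composition of the transcripts. Over 12122 genes with a mean of at least 100 counts, the log2 fold change and the GC content of the transcript had a Pearson correlation of 0.43 and a Spearman correlation of 0.51 across genes. Genes do not count as independent replicates. The median fold change went from -0.18 in the quintile of genes with the lowest GC content to 0.22 in that with the highest. In the lowest quintile 104 genes passed higher and 930 lower, and in the highest 1173 and 109. All 3 libraries with rapamycin lay on one side and all 3 without on the other in both quintiles, so the treatment and a difference in library composition cannot be told apart from these values alone. A fit with this trend removed was therefore added after the data had been seen, and it called 3932 genes, 1875 higher and 2057 lower. Of the 5295 genes, 3059 passed in the same direction in it, and the others did not pass. Values from that fit are given below as trend-removed values.

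**Figure D1:**
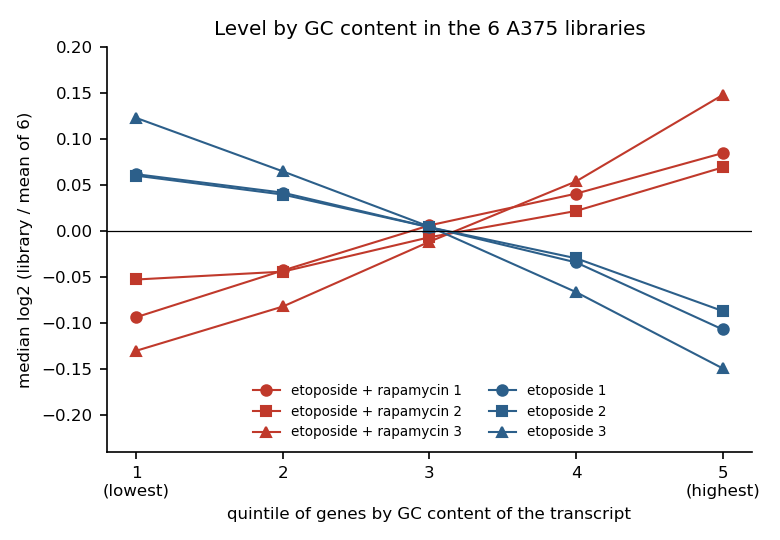
Median log2 ratio of each A375 library to the mean of the 6 (vertical axis), over genes with a mean of at least 100 counts grouped into quintiles by GC content of their transcript (horizontal axis). The 3 libraries with rapamycin (red) rise from -0.13 to -0.05 in the lowest quintile up to 0.07 to 0.15 in the highest, and the 3 with etoposide alone (blue) run the other way.

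The genes of the cytosolic ribosome rose together. All 79 ribosomal protein genes were tested, 76 passed higher and 1 lower, with a median of 0.40 beside -0.01 over all genes tested. Only 9 of them were DE, since most increases were under 1.5-fold. RPL12, a protein of the large subunit, had 31139, 32163 and 32013 with rapamycin and 17743, 19811 and 18931 without rapamycin (log2 fold change 0.75 ± 0.05, adjusted p = 5.23e-07). The 2 groups were far apart for it, with no value shared. RPL3, RPL10, RPL13 and RPL13A changed by 0.65, 0.66, 0.72 and 0.64, while RPLP0, a stalk protein and a common reference gene, rose by 0.33 ± 0.04. The single member that fell was RPS26 (-0.18, adjusted p = 0.0204), which was named after its values had been seen. It no longer passed without etoposide + rapamycin library 1 or 3 or etoposide library 2 (adjusted p = 0.053, 0.091 and 0.087). With the trend removed the median was 0.41, and 75 members passed higher and 1 lower. Of the 79 rows, 38 shared a locus with another gene name, and how the counts were split between such names is not stated.

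Translation factor genes were mixed. 16 of 42 passed higher and 9 lower, and 20 and 2 did so with the trend removed. EEF2, which moves the ribosome along the message, had 134251, 136698 and 146122 with rapamycin and 80818, 80255 and 75835 without (log2 fold change 0.82 ± 0.04, adjusted p = 1.64e-07). EEF1A1, which delivers aminoacyl-tRNA, had 424378, 428321 and 415301 with rapamycin and 300673, 311876 and 307173 without and rose by 0.46 ± 0.03, the most abundant member of the list. EEF1D, EEF1G and the initiation subunit EIF3F rose by 0.65, 0.51 and 0.57. The cap-binding factor EIF4E went the other way (-0.48, adjusted p = 0.000458), and it was named after its values had been seen.

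Most other genes known for a TOP tract rose too. Of 20 tested, 14 passed higher and 1 lower, with a median of 0.25 and of 0.38 with the trend removed. NOP53, a ribosome assembly factor, had 18289, 17715 and 20077 with rapamycin and 9857, 10731 and 10177 without (log2 fold change 0.87 ± 0.05, adjusted p = 5.54e-07). GAS5, a non-coding host of small nucleolar RNAs, had 13255, 13185 and 12462 with rapamycin and 7625, 8274 and 8296 without and rose by 0.69 ± 0.05. RACK1, TPT1 and the intermediate filament gene VIM rose by 0.53, 0.25 and 0.38. The groups did not overlap for any of these 5 genes, nor for 42.6% of all genes tested. The 5 were named for their level or a small adjusted p, which favours a lack of overlap.

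RefSeq start sites show how widely the tract is shared. Windows from 8 bases before to 20 bases from the start, on the strand of the gene (GRCh38.p14), are printed for genes that rose and for the pair that fell, with an unbroken run of C and T that opens with a C at the start in capitals. The first 5 carry such a run, and RPS26 and EIF4E do not. These genes were picked, so the windows do not show that the run parts genes that rose from genes that fell. Ribosomal protein genes without the run rose too, since it was found in 43 of 63 and 76 of 79 passed higher.
RPL12 (chr9:127451387-127451414, - strand): atttccggCCTCTCggctttcggctcgg
RPL13A (chr19:49487600-49487627, + strand): acctcctcCTTTTCCaagcggctgccga
EEF2 (chr19:3985444-3985471, - strand): tcagcgttCTCTTCCgccgtcgtcgccg
EEF1A1 (chr6:73521013-73521040, - strand): tgaacgttCTTTTTCgcaacgggtttgc
NOP53 (chr19:47745538-47745565, + strand): gctgagttCTTCCTTTgacaagatggcg
RPS26 (chr12:56041910-56041937, + strand): ataacctcgattttcttccgccatccgg
EIF4E (chr4:98929114-98929141, - strand): gagcggttgtgcgatcagatcgatctaa
A run of at least 5 such bases stood at the start of 43 of 63 ribosomal protein genes found in the table (68.3%) and of 12 of 17 other TOP genes (70.6%). It stood at 9 of 35 translation factor genes (25.7%) and at 5 of 72 mitochondrial ribosomal protein genes (6.94%), beside 1429 of all 35116 promoters (4.07%). This is a description of annotated start sites, and no match says only that the letters are not at that position.

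Genes that build ribosomes in the nucleolus did not rise as a whole, though some members did. 12 of 40 passed higher and 6 lower, with a median of -0.02. The share that passed was 45%, beside 28.1% of all genes tested, of which 14.3% passed higher and 13.8% lower. With the trend removed 7 passed higher and 2 lower, with a median of 0.03. TCOF1, which aids transcription of ribosomal RNA genes, rose by 0.65 ± 0.08 (adjusted p = 6e-05), and NOB1, UBTF and RRS1 by 0.42, 0.36 and 0.41. NCL, the most abundant of the list, was at 11409, 11569 and 11348 with rapamycin and 11472, 11681 and 11924 without (-0.03, adjusted p = 0.617). Nor did the mitochondrial ribosome follow, with 12 of 77 genes higher, 14 lower and a median of -0.03. Of the cytosolic tRNA synthetase genes, 1 of 22 passed higher and 6 lower. The share that passed was 33.8% in the mitochondrial ribosome list and 31.8% in the tRNA synthetase list, near the 28.1% of all genes tested. QARS rose by 0.38 and WARS and RARS changed by -0.33 and -0.32.

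**Figure D2:**
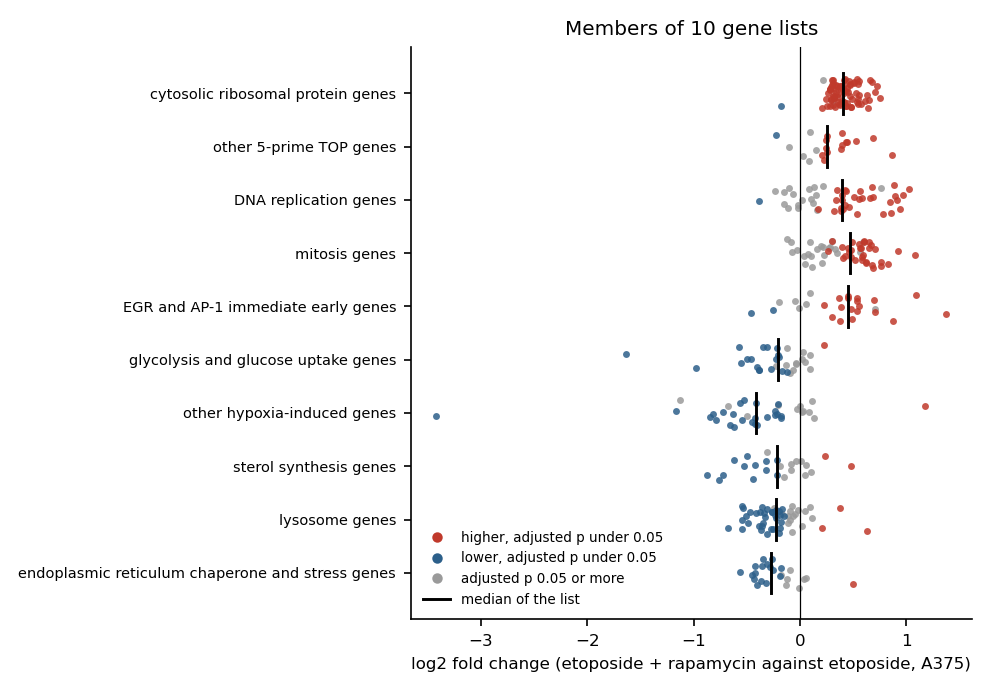
Log2 fold change of each tested member of 10 gene lists in A375 (horizontal axis), 1 point a gene, coloured by direction where the adjusted p was under 0.05, with the median of the list as a black line. Ribosomal protein genes form a narrow band around 0.40, whereas hypoxia-induced genes spread from -3.42 to 1.17.

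Most genes induced by low oxygen fell. Of 36 hypoxia-induced genes outside glycolysis, 24 passed lower (9 of them DE) and 1 higher, with a median of -0.42 and of -0.34 with the trend removed. CA9, a carbonic anhydrase at the cell surface and a standard HIF1 target, had 27.8, 27.8 and 32.6 with rapamycin and 348, 336 and 263 without. It was 0.0934 times its level without rapamycin (log2 fold change -3.42 ± 0.18, adjusted p = 1.21e-07), and its highest library with rapamycin lay well under the lowest without. BNIP3, a mitophagy receptor, had 1759.8, 2012 and 1796 with rapamycin and 2826, 3046 and 3337 without (log2 fold change -0.73 ± 0.07, adjusted p = 1.26e-05). LOXL2, P4HA1 and NDRG1, which act on collagen and in stress, changed by -0.56, -0.55 and -0.41, all past the threshold. The gene of the oxygen-regulated subunit itself, HIF1A, had 9178, 9256 and 9094 with rapamycin and 14684, 14057 and 14700.1 without and fell by 0.66 on the log2 scale (adjusted p = 5.55e-07). EPAS1, which encodes the related HIF2 subunit, changed by -0.85, and the exception that rose was another carbonic anhydrase, CA12 (1.17, adjusted p = 0.023). Both were named after their values had been seen. CA12 did not pass without etoposide + rapamycin library 2 or 3 or etoposide library 1 or 3 (adjusted p = 0.060, 0.085, 0.072 and 0.086).

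Most glycolysis genes fell too, by less. 18 of 31 genes passed lower and 1 higher, with a median of -0.21 (-0.26 with the trend removed). ALDOC, an aldolase isoform, had 699, 837 and 721 with rapamycin and 2062, 2488 and 2453 without (log2 fold change -1.63 ± 0.09, adjusted p = 1.37e-07), and no other member changed as much. PDK1, a kinase that inhibits pyruvate dehydrogenase, changed by -0.98 and was named after its values had been seen. PGK1, the glycogen enzyme GBE1 and LDHA changed by -0.50, -0.55 and -0.40. The most abundant members, PKM and GAPDH, did not pass (-0.09, adjusted p = 0.0801 and 0.02, adjusted p = 0.771). PKM passed lower with the trend removed (-0.16, adjusted p = 0.00308) and in DESeq2 (adjusted p = 0.0349). GAPDH turned to -0.12 with the trend removed (adjusted p = 0.0465), so its direction depended on that choice.

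The core of the hypoxia response element, ACGTG, was searched on both strands of the RefSeq promoters, 250 bases before to 50 from each start. It overlaps the E-box CACGTG. It was in 17 of 31 promoters of hypoxia-induced genes (54.8%) and 10 of 28 of glycolysis genes (35.7%), beside 7518 of all 35116 (21.4%), 4 of 18 of sterol genes (22.2%) and 11 of 43 of DNA replication genes (25.6%). The matches nearest the start are shown in capitals, as ACGTG or its complement CACGT, for the 2 genes of these lists that fell most and for BNIP3 and DDIT4, and they lie 18, 28, 133 and 125 bases before the start.
CA9 (chr9:35673898-35673926, + strand): tcgtttccaatgCACGTacagcccgtaca
ALDOC (chr17:28576907-28576935, - strand): ccccggaggagtCACGTagctctgcgaca
BNIP3 (chr10:131982040-131982068, - strand): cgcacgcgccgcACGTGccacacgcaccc
DDIT4 (chr10:72273787-72273815, + strand): agaacgttgcttACGTGcgcccggagtcc
The PDK1 window held no match upstream of its start. A match is a description of the letters and not a binding site.

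Sterol synthesis genes more often fell than rose. 12 of 24 passed lower and 2 higher, with a median of -0.21. DHCR7, which makes cholesterol in the last step of one branch, had 1168, 1025 and 1202 with rapamycin and 1946, 1737 and 1937 without (log2 fold change -0.73 ± 0.07, adjusted p = 1.56e-05), and STARD4, a sterol carrier, changed by -0.87. In fatty acid synthesis 5 of 14 genes passed lower and 1 higher. SCD, which places the first double bond in fatty acids, had 3849.7, 3794 and 3659 with rapamycin and 7612, 7018 and 7300.2 without (log2 fold change -0.96 ± 0.05, adjusted p = 9.26e-08), and the NADPH source ME1 changed by -0.89. Their regulator SREBF1 changed by -0.32 (adjusted p = 0.0011), while FASN and ACLY did not pass (0.18, adjusted p = 0.0872 and -0.05, adjusted p = 0.509). Without etoposide library 1, FASN passed at 0.29 (adjusted p = 0.0023).

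Nucleotide synthesis genes more often rose. 13 of 30 passed higher and 2 lower, with a median of 0.14. TK1, a thymidine kinase of dividing cells, had 831, 911 and 925 with rapamycin and 382, 386 and 484 without (log2 fold change 1.09 ± 0.10, adjusted p = 1.22e-05). RRM2, the subunit that limits ribonucleotide reductase, had 3255, 3078 and 2911 with rapamycin and 1815, 1961 and 2044 without and rose by 0.67 ± 0.06. IMPDH2 and MTHFD1L, of purine synthesis and folate metabolism, rose by 0.32 and 0.53. Genes of the amino acid response led by ATF4 were mixed, 7 higher and 9 lower of 33. The transporter SLC1A4 rose by 0.44, SLC38A2, a transporter of another family, changed by -0.51, and the lipoprotein receptor VLDLR, the only DE member, by -1.18.

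Many proliferation genes rose. The median GC content was 45.3% for DNA replication genes and 42% for mitosis genes. These values fall in the third and the second of the quintiles above, where the median fold changes were -0.01 and -0.11. The part of base composition in the change of these lists was not tested. Of 48 replication genes 30 passed higher (12 DE) and 1 lower, with a median of 0.40, and the trend-removed median was 0.42. MCM7, of the helicase that opens origins, had 4149, 3994 and 4028 with rapamycin and 2150.5, 2191 and 2109 without (log2 fold change 0.92 ± 0.04, adjusted p = 9.24e-08). MCM2, in the same complex, had 1890.4, 2069.6 and 1933 with rapamycin and 1046, 1071 and 1077 without, and MCM4 rose by 0.46. The flap nuclease FEN1 and UHRF1, which maintains DNA methylation, rose by 0.56 and 0.85, but PCNA, the sliding clamp and also a p53 target, did not pass (-0.10, adjusted p = 0.225).

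Of 54 mitosis genes 32 passed higher, 16 of them DE, and the other 22 did not pass, with a median of 0.47 and of 0.54 with the trend removed. MKI67, the proliferation antigen Ki-67, had 2146, 2309 and 2425 with rapamycin and 1124, 1118 and 1011 without. It was 2.11 times as high (log2 fold change 1.08 ± 0.06, adjusted p = 3.48e-07), with tight values in each group. CENPF, ESPL1 (separase) and the transcription factor FOXM1 rose by 0.76, 0.83 and 0.68. CDC25B and BUB3, which had the highest counts of the list beside NCAPD2, did not pass (-0.09, adjusted p = 0.173 and -0.03, adjusted p = 0.711). CDC25B passed lower with the trend removed (-0.25, adjusted p = 0.00199) and with library totals (-0.13, adjusted p = 0.0421). In the G1 and E2F list 13 of 32 passed higher and 6 lower. E2F1, which drives S-phase genes, had 1873, 1826 and 2049 with rapamycin and 1303, 1186 and 1149 without and rose by 0.66 ± 0.07. Replication-dependent histone genes, whose messages mostly lack a polyA tail, had 26 rows tested, 28 under the filter. In edgeR 0 passed, 4 had an unadjusted p under 0.05, and in DESeq2 0 passed. The median fold change of those tested was -0.10.

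**Figure D3:**
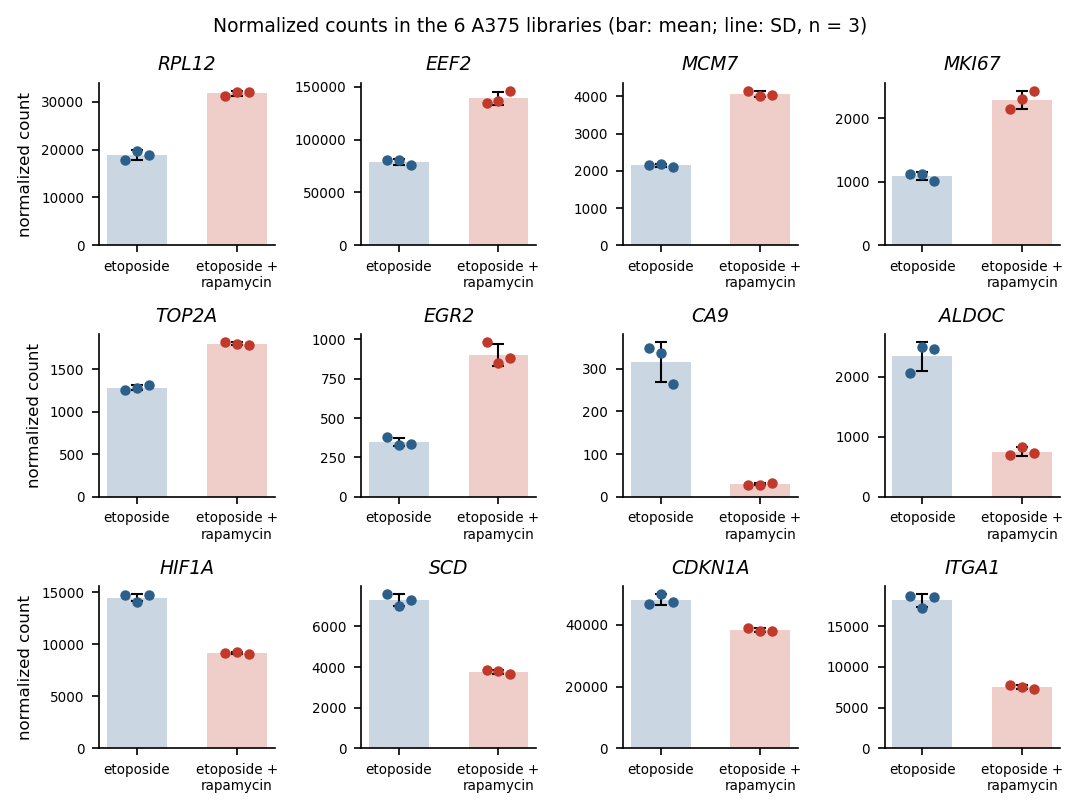
Normalized counts (vertical axes, each from 0) of 12 genes in the 3 A375 libraries with etoposide (blue) and the 3 with etoposide + rapamycin (red), 1 point a library, with the mean as a bar and the SD as a line. In each of the 12 genes all 3 libraries of one group lie above all 3 of the other, as CA9 shows most clearly. The same holds for 42.6% of all genes tested.

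Of the 2 targets of etoposide, TOP2A rose and TOP2B did not pass. TOP2A, the topoisomerase II of dividing cells, had 1817, 1800.0 and 1784 with rapamycin and 1251, 1284 and 1314 without (log2 fold change 0.49 ± 0.05, adjusted p = 2.67e-05). TOP2B, the isoform of all cells, had 2938, 2793 and 2482 with rapamycin and 2919, 2834 and 3005 without and did not pass (-0.09, adjusted p = 0.291). TOP1 changed by -0.35 and the mitochondrial TOP1MT by 0.58, both past the threshold. In the whole list of topoisomerase and adduct repair genes 5 of 15 passed higher and 3 lower. Of 45 double-strand break repair genes 20 passed higher, 8 of them DE, and 1 lower. The nuclease EXO1 and the Fanconi anemia genes FANCG and FANCI rose by 0.64, 0.77 and 0.51. H2AFX, the histone marked at breaks, had 3940.2, 3913 and 4119 with rapamycin and 2796, 2632 and 2575 without and rose by 0.58 ± 0.05. The end-joining pair XRCC5 and XRCC6 did not pass (-0.08, adjusted p = 0.241 and -0.01, adjusted p = 0.931).

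Fewer p53 target genes rose than fell. 6 of 38 passed higher and 14 lower, with a median of -0.06. CDKN1A, the p21 inhibitor of cyclin kinases, had 38946, 37993 and 37961 with rapamycin and 46853, 50091 and 47501 without (log2 fold change -0.33 ± 0.04, adjusted p = 9.04e-05). The secreted stress factor GDF15, the only DE member of the list, had 686, 663 and 662 with rapamycin and 1266, 1279 and 1198 without and changed by -0.90 ± 0.07. SFN, which encodes the 14-3-3 sigma protein, is a known p53 target outside that list and was low, with 8.23, 16.9 and 12.8 with rapamycin and 52.9, 43.4 and 35.9 without (log2 fold change -1.79 ± 0.35, adjusted p = 0.00239). MDM2, which degrades p53, had 16484, 16060.1 and 13713 with rapamycin and 20465, 20545 and 20976 without. All 3 libraries with rapamycin lay under the controls, 1 of them well under the other 2 (log2 fold change -0.42 ± 0.06, adjusted p = 0.000294). RRM2B, PLK2 and RPS27L changed by -0.47, -0.49 and -0.43. The death gene BBC3 rose by 0.40, and did not pass with the trend removed (0.06, adjusted p = 0.586). Genes of the BCL2 family as a whole split evenly, 5 higher and 5 lower of 18. With the trend removed 2 passed higher and 4 lower, and the median of the list went from 0.06 to 0.002. The only DE member of that list was BNIP3 (-0.73), described above with the hypoxia-induced genes.

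Most lysosome genes fell. 33 of 51 passed lower and 3 higher, with a median of -0.23 and of -0.26 with the trend removed. ATP6V1A, a subunit of the proton pump, had 4049, 3878 and 3474 with rapamycin and 6078, 5968 and 6226 without (log2 fold change -0.68 ± 0.06, adjusted p = 4.36e-06). SCARB2, a lysosomal membrane protein, changed by -0.54. The cathepsin gene CTSF was an exception and had 3415, 3492 and 3265 with rapamycin and 2076, 2246 and 2232 without (log2 fold change 0.63 ± 0.05, adjusted p = 3.22e-06). LAMP1 and CD63, among the most abundant, did not pass (-0.11, adjusted p = 0.0598 and -0.05, adjusted p = 0.511), but LAMP1 passed lower with the trend removed (-0.15, adjusted p = 0.0134) and in DESeq2 (adjusted p = 0.0249).

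More autophagy machinery genes passed lower than higher, and most did not pass. 5 of 44 passed higher and 12 lower, with a median of -0.05. The share that passed was 38.6%, beside 28.1% of all genes tested, of which 14.3% passed higher and 13.8% lower. With the trend removed 2 passed higher and 9 lower. ULK1, the kinase that starts autophagy, had 3336, 3285 and 3504 with rapamycin and 2572, 2522 and 2462 without (log2 fold change 0.42 ± 0.05, adjusted p = 4.42e-05). MAP1LC3B, which encodes the LC3 protein of the autophagosome, had 4510.0, 4457 and 4169.9 with rapamycin and 5088, 5147 and 5094 without and changed by -0.22 ± 0.05. The receptor SQSTM1 (p62) had 68769.7, 67631 and 71093 with rapamycin and 72676, 77713 and 73218 without and did not pass (-0.11, adjusted p = 0.0677), although its trend-removed change did (-0.24, adjusted p = 0.00048), as did its change without etoposide library 1 (-0.12, adjusted p = 0.022) and in DESeq2 (-0.10, adjusted p = 0.0305). GABARAPL2, ATG3, CALCOCO2 and VMP1 changed by -0.32, -0.30, -0.28 and -0.26. With the trend removed ATG3 and VMP1 did not pass (-0.16, adjusted p = 0.0663 and -0.10, adjusted p = 0.19). These are levels of messages and say nothing of autophagic flux.

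Of the genes of the drug's own pathway, more fell than rose. MTOR had 4039.9, 3989.5 and 4017 with rapamycin and 4070.2, 3429 and 3577 without (0.12, adjusted p = 0.156) and FKBP1A had 16477, 16231 and 15847 with rapamycin and 15456, 17075 and 17431 without (-0.04, adjusted p = 0.59). Without etoposide library 1, MTOR passed at 0.20 (adjusted p = 0.0056). Of 50 genes of the mTOR complexes and their regulators 6 passed higher and 18 lower, 5 of them DE. DDIT4, an inhibitor of mTORC1 that responds to hypoxia and DNA damage, had 974, 857 and 863 with rapamycin and 1430.1, 1533 and 1369 without (log2 fold change -0.68 ± 0.07, adjusted p = 2.6e-05). PIK3R3, a regulatory subunit of PI3K, changed by -0.89 and the lysosomal scaffold LAMTOR3 by -0.61. PPP2R2B, a regulatory subunit of the phosphatase PP2A, is outside that list. It had 41.1, 30.7 and 35.5 with rapamycin and 68.3, 107 and 83.2 without (log2 fold change -1.26 ± 0.25, adjusted p = 0.00231). IRS2, an adaptor of the insulin receptor, had 21628, 22409.7 and 24144 with rapamycin and 16602, 13992 and 15046 without (log2 fold change 0.58 ± 0.06, adjusted p = 3.41e-05).

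Mitochondrially encoded genes fell by small amounts. All 12 that were tested passed lower, with a median of -0.29, and 10 did so with the trend removed. MT-CO1 had 285715, 284386 and 265366 with rapamycin and 317932, 325797 and 334534 without (log2 fold change -0.23 ± 0.04, adjusted p = 0.000969), and MT-CYB and MT-ATP6 changed by -0.25 and -0.43. Their share of all counts was 3.31% to 3.53% with rapamycin and 4.15% to 4.50% without, and fewer transcripts per cell and another make-up of the libraries cannot be told apart. Of 75 nuclear genes of the respiratory chain 20 passed lower and 6 higher, with a median of -0.14. The share that passed was 34.7%, beside 28.1% of all genes tested. The median log2 ratio of the list to the mean of the 6 libraries was -0.07 to -0.05 with rapamycin. It was -0.07, 0.13 and 0.07 in etoposide libraries 1, 2 and 3, so the groups overlapped. Without etoposide library 2 the median fold change was -0.08. NDUFV2, ATP5C1 and SDHC changed by -0.42, -0.34 and -0.25.

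Most immediate early genes rose. Of 26, 18 passed higher and 2 lower, with a median of 0.45 and of 0.36 with the trend removed. The median GC content of this list was 55.6%, which falls in quintile 4 by GC content, where the median fold change was 0.09. The part of base composition in its change was not tested. EGR2, a zinc finger factor, had 982, 848 and 881 with rapamycin and 378, 329.7 and 336 without (log2 fold change 1.38 ± 0.09, adjusted p = 1.03e-06). MAFF, FOSL1 and the orphan receptor NR4A1 rose by 0.87, 0.70 and 0.54. JUN, a partner in AP-1, had 5553, 5228 and 5777 with rapamycin and 3735, 3787 and 3935 without and rose by 0.53 ± 0.05, while JUND rose by 0.30 and had -0.06 with the trend removed (adjusted p = 0.449). FOS, named after its values had been seen, went down (-0.46, adjusted p = 0.00128). Among outputs of the ERK pathway, 6 of 20 passed higher and 6 lower. The phosphatase DUSP5 and the receptor EPHA2 rose by 0.50 and 0.47, and PHLDA1 changed by -0.23.

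Ligands of the EGF family parted. AREG had 2549.7, 2438 and 2544 with rapamycin and 1089.7, 1108 and 1091 without (log2 fold change 1.20 ± 0.05, adjusted p = 2.02e-08) and NRG1 had 312, 327 and 275 with rapamycin and 116, 170.4 and 124 without (log2 fold change 1.15 ± 0.15, adjusted p = 0.000181). TGFA, the most abundant ligand, fell, with 18937, 18364 and 17632 with rapamycin and 26228, 26014 and 26967 without (log2 fold change -0.53 ± 0.04, adjusted p = 3.35e-06). EGF itself was low, with 52.5, 71.4 and 55.3 with rapamycin and 133, 83.7 and 102 without. It changed by -0.83 ± 0.23 (adjusted p = 0.0157), and its lowest control library lay near the highest with rapamycin. It did not pass without etoposide + rapamycin library 1 or 3 or etoposide library 1 (adjusted p = 0.060, 0.062 and 0.066). FGF1, a ligand of the FGF receptors, had 125, 134 and 134 with rapamycin and 287, 296 and 289.5 without (log2 fold change -1.15 ± 0.12, adjusted p = 2.34e-05). In the whole list of ligands and receptors 7 of 26 passed higher and 3 lower.

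The secreted products of senescent cells were also mixed, 16 of 38 higher and 6 lower. SERPINB2, an inhibitor of plasminogen activators, had 2216, 2203 and 1963 with rapamycin and 569, 622 and 614 without and was 3.54 times as high (log2 fold change 1.82 ± 0.07, adjusted p = 1.57e-08). SERPINE2, a related inhibitor and one of the most abundant messages, had 150274, 150953 and 149237 with rapamycin and 252564, 258715 and 270656 without (log2 fold change -0.80 ± 0.04, adjusted p = 5.72e-08). IGFBP3 and TIMP1, which bind growth factors and inhibit matrix proteases, changed by 0.25 and -0.23.

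Matrix and adhesion genes changed by large amounts one by one. 9 of 33 matrix genes passed higher and 5 lower. ESM1, a proteoglycan, had 456, 553 and 410.5 with rapamycin and 111, 111 and 139 without (log2 fold change 1.98 ± 0.14, adjusted p = 1.55e-06), and the collagen gene COL6A3 had 844, 836 and 930.5 with rapamycin and 398, 383 and 329.6 without (log2 fold change 1.23 ± 0.10, adjusted p = 2.84e-06). The glycoproteins THBS1 and TNC rose by 0.72 and 0.68, whereas SPARC had 62761, 60305 and 60748 with rapamycin and 95477, 96571 and 98890.0 without (log2 fold change -0.66 ± 0.04, adjusted p = 2.67e-07). The median of this list turned from 0.05 to -0.14 with the trend removed. Of 19 integrin genes 11 passed lower and 2 higher. ITGA1, a collagen receptor chain, had 7801, 7541 and 7221 with rapamycin and 18734, 17215 and 18518 without (log2 fold change -1.27 ± 0.05, adjusted p = 1.57e-08). 2 further collagen receptor chains, ITGA10 and ITGA11, changed by -1.004 and -0.97, and ITGA6, a laminin receptor chain, by -0.56.

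Interferon-stimulated genes were lower in 18 and higher in 4 of 46, with a median of -0.20. IFI16, a DNA sensor, had 1753, 1884 and 1719.9 with rapamycin and 2669, 2537 and 2443 without (log2 fold change -0.51 ± 0.05, adjusted p = 3.27e-05). GBP2 and PARP9 changed by -0.50 and -0.40, and the transcription factor IRF1 rose by 0.66 ± 0.06. In the presentation of peptides by MHC class I, 4 of 18 genes passed higher and 3 lower. The loading chaperones CALR and PDIA3 changed by -0.36 and -0.43.

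Those chaperones moved with the endoplasmic reticulum list, in which 16 of 24 passed lower and 1 higher, with a median of -0.27. HSPA5, the luminal chaperone BiP, had 20870.3, 20729 and 20874 with rapamycin and 28490.3, 28545 and 28499 without (log2 fold change -0.45 ± 0.04, adjusted p = 4.33e-06), and HSP90B1 and DNAJC3 changed by -0.57 and -0.43. Chaperones of the cytosol and mitochondria were lower in 8 and higher in 3 of 29, and HSPA8 did not pass (-0.00, adjusted p = 0.998). Proteasome genes were lower in 7 and higher in 2 of 33. The share that passed was 37.9% in the list of cytosolic and mitochondrial chaperones and 27.3% in the proteasome list, beside 28.1% of all genes tested. NRF2 targets were lower in 10 and higher in 2 of 22. AKR1C2, a ketosteroid reductase, had 311, 354 and 316 with rapamycin and 800.2, 902 and 904 without (log2 fold change -1.41 ± 0.09, adjusted p = 7.83e-07), and the ferritin chain FTH1 and the export pump ABCC2 changed by -0.32 and -0.52.

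The melanocyte lineage list was lower in 10 and higher in 4 of 31. GPNMB, a melanosome glycoprotein, had 2591, 2349 and 2397 with rapamycin and 4946, 5023 and 5220.0 without (log2 fold change -1.05 ± 0.05, adjusted p = 8.3e-08). MITF, the master regulator of the lineage, had 417, 358 and 419 with rapamycin and 615, 532 and 547 without (log2 fold change -0.51 ± 0.10, adjusted p = 0.00248). S100B and NGFR, both markers of neural crest cells, changed by -0.58 and -0.57, and the receptor AXL had 7907, 7829 and 8049.8 with rapamycin and 5380.1, 5106 and 5084 without (log2 fold change 0.61 ± 0.04, adjusted p = 1.43e-06). SOX10 varied within groups more than between them, with 17011, 9569 and 15297 with rapamycin and 13169, 14100.4 and 10764 without (0.14, adjusted p = 0.572). Without etoposide + rapamycin library 2 it passed at 0.35 (adjusted p = 0.022).

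**Figure D4:**
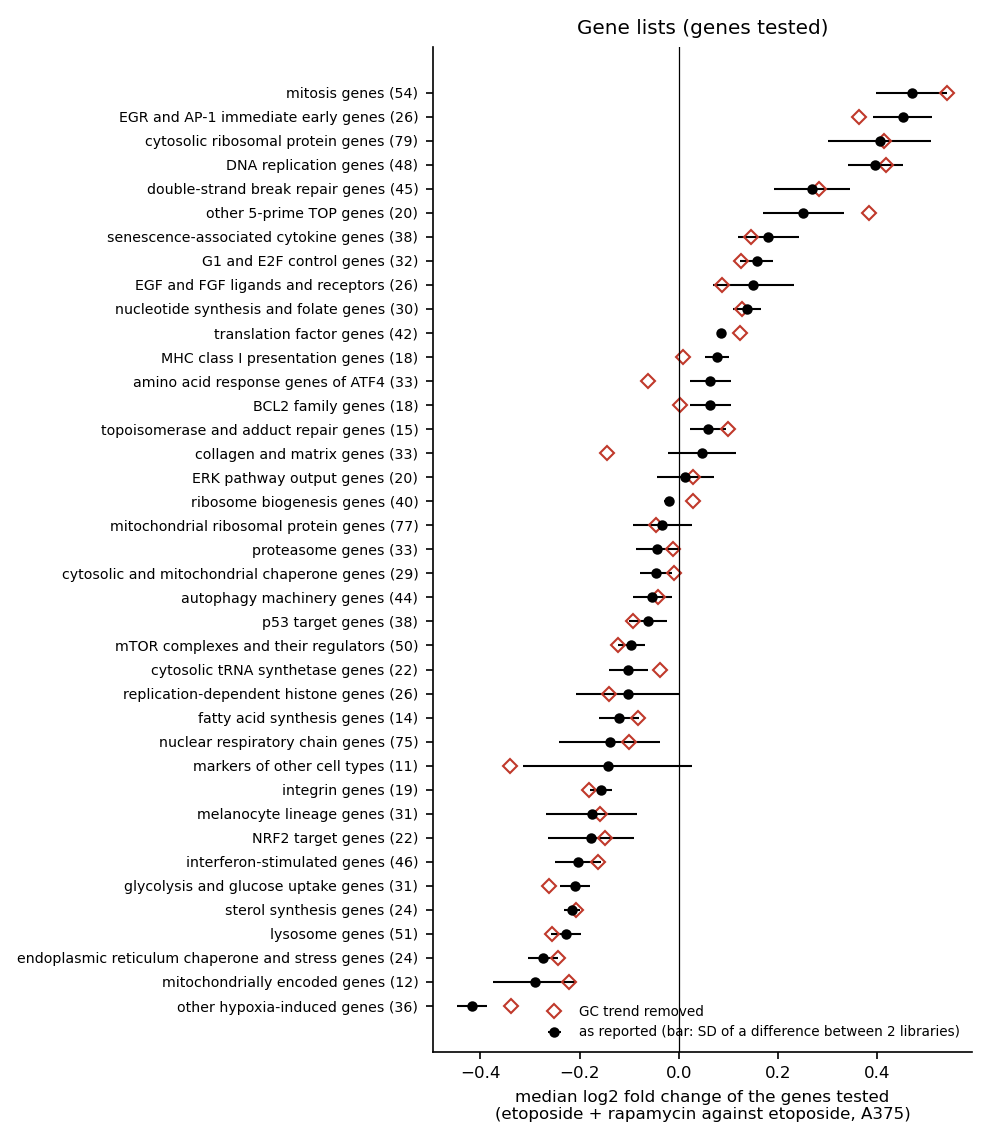
Median log2 fold change in A375 of the tested members of 39 gene lists (horizontal axis; the number tested is in brackets), as reported (black, with the SD of a difference between a library of each group) and with the GC trend removed (red diamonds). As reported, the mitosis, immediate early, ribosomal protein and DNA replication lists lie between 0.40 and 0.47 and the hypoxia-induced list lowest at -0.42. With the trend removed the immediate early list is at 0.36, and the hypoxia-induced list and the markers of other cell types are both at -0.34.

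Beyond the lists, the 12 largest changes in each direction among DE genes with a mean of at least 100 counts and no overlap were named. The largest increase after MTATP6P1, a mitochondrial pseudogene, was that of MUC5AC, a secreted mucin, with 316, 321 and 280.2 with rapamycin and 66.4, 74.6 and 76 without (log2 fold change 2.08 ± 0.14, adjusted p = 7.83e-07). MMP9, a gelatinase, had 1044, 885 and 938 with rapamycin and 265, 267 and 301 without (log2 fold change 1.78 ± 0.10, adjusted p = 1.94e-07). The forkhead factor FOXC2 rose by 1.62, the cartilage proteoglycan ACAN by 1.61, the collagen gene COL22A1 by 1.498, the phosphatase ACPP by 1.48 and the cytokine IL37 by 1.43. RTL1 rose by 1.41 and AC092143.1, which shares a locus with another name, by 1.96. AC092143.1 did not pass in DESeq2 (adjusted p = 0.114), and its change lay between 1.44 and 2.88 without single libraries. MTATP6P1 rose by 3.38 ± 0.60 but shares a locus too. It had 19017, 18870.2 and 1856 with rapamycin and 1066, 1571 and 1188 without, so 1 library with rapamycin was close to the controls and far under the other 2, and without that library the change was 3.89.

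After CA9, the largest decreases were those of the antisense RNA IGFL2-AS1 (-3.05) and of TCN1, a vitamin B12 carrier, with 54.5, 91.2 and 102 with rapamycin and 417, 388 and 430.2 without (log2 fold change -2.32 ± 0.18, adjusted p = 2.91e-06). The cofactor LDB2 had 46.3, 44.6 and 43.4 with rapamycin and 184, 174 and 186 without (log2 fold change -2.02 ± 0.17, adjusted p = 3.98e-06). FYB1, ALPK2, LAPTM5 and the acute phase gene SAA2 changed by -1.84, -1.75, -1.72 and -1.70, and SAA2 shares a locus with another name. The hexokinase-like HKDC1, the envelope protein SPRR2D and the protease inhibitor A2M changed by -1.67, -1.67 and -1.66. LYZ and LUM, lysozyme and a stromal matrix gene, are in a second list, of 25 markers of other cell types. They changed by -1.32 and -0.73 (adjusted p = 4.93e-06 and 0.00502). LYZ, CD68 and KRT18 were not among the 15 markers summed above. Of the 11 members of the second list that were tested, 3 passed lower, LYZ, LUM and DCN, and 2 higher, CD68 and KRT18. The median was -0.14 and -0.34 with the trend removed. DCN, CD68 and KRT18 did not pass with the trend removed (adjusted p = 0.0824, 0.107 and 0.15). Nor did DCN pass without etoposide + rapamycin library 2 or etoposide library 3 (adjusted p = 0.0694 and 0.0871), KRT18 without etoposide + rapamycin library 3 (adjusted p = 0.0823), or CD68 without etoposide + rapamycin library 1 or 3 or etoposide library 1 or 2 (adjusted p = 0.155, 0.0744, 0.106 and 0.0901). Their part in the other decreases was not tested.

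Among the lists, the A375 response differed from that of SK-MEL-28 most often in glycolysis. The difference between the lines passed at an adjusted p under 0.05 for 1130 of 20101 genes (5.62%). It passed for 18 of 31 glycolysis genes, in 18 of which the change in SK-MEL-28 was the more negative, and the median was -0.41 there against -0.21 in A375. Of the other hypoxia-induced genes, 11 of 36 differed, 9 of them with the lower value in SK-MEL-28. It passed for 15 of 54 mitosis genes, all with the lower value in SK-MEL-28, where the median was -0.02. MKI67 changed by 0.01 there and 1.08 in A375 (adjusted p of the difference = 7.89e-06), and TOP2A by -0.32 and 0.49 (adjusted p of the difference = 7.89e-06). Lysosome genes differed in 10 of 51, all with the higher value in SK-MEL-28. Ribosomal protein genes differed in 4 of 79, with a median of 0.50 in SK-MEL-28. The number over all genes rested on single libraries, since it was 594 without A375 etoposide + rapamycin library 3, 644 without A375 etoposide library 3, 710 without SK-MEL-28 etoposide + rapamycin library 2, and 616 or 705 without SK-MEL-28 etoposide library 2 or 3.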

How the data were processed

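RNA of 6 A375 libraries, 3 with etoposide + rapamycin and 3 with etoposide, was compared. From polyA-enriched libraries, the authors aligned clean reads to GRCh38 with HISAT2, estimated expression with StringTie on an Ensembl annotation and deposited raw counts per gene, unnormalized and unpooled. How coverage became counts is not stated. Of 58312 rows, 5 named no gene (at most 0.00529% of the counts) and were left out. Of the rows tested, 3173 (16.8%) shared a locus with another gene name.

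Tests used edgeR 4.0.16 in R 4.3.3 (filterByExpr with a minimum count of 10, TMM, glmQLFit and glmQLFTest), with p-values adjusted by Benjamini-Hochberg across every gene in the fit. Standard errors were obtained as |log2 fold change| / √F. The difference between cell lines was an interaction term over all 12 libraries. Alternatives were DESeq2 1.42.0, RLE factors, library totals, 2 filters, one fit of all libraries, the replicate block, rows summed by name, a test against 1.5-fold and each library left out. 2 fits with the GC trend removed (loess of each library on the GC content of the longest GENCODE 44 transcript, matched for 87.8% of the rows tested) were chosen after seeing the data. The scripts were tested on simulated data.

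Libraries, gene lists and the naming rule were chosen with earlier results of these data known. Named were the 12 largest DE changes in each direction (mean at least 100 counts, no overlap), in each list the 3 most abundant members and the 4 with the smallest adjusted p under 0.05, and EGF, FGF1, BNIP3, DDIT4, PPP2R2B, SFN, MTOR, FKBP1A, TOP2A, TOP2B, CDKN1A, MAP1LC3B, SQSTM1 and the melanoma markers. Exceptions were named after their values had been seen. Some genes that the rule names are not reported here. Promoters came from RefSeq (GRCh38.p14).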

Additional observations from a re-analysis of the deposited data

Results flagged for a closer look

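The change with rapamycin in 64 of the 194 tested genes named above differed between A375 and SK-MEL-28 by the test of the difference itself (adjusted p under 0.05, 3 libraries in each of 4 groups). Over all genes, 1130 of 20101 (5.62%) did so. Many of the named genes were picked for a large change or small adjusted p in A375, and the same A375 values enter the difference. That choice favours both a difference and a smaller change in SK-MEL-28. The number after each gene is the log2 fold change in SK-MEL-28 minus that in A375. Among genes that were higher in A375, the fold change in SK-MEL-28 was smaller for ACPP (-0.9998), CENPF (-0.65), COL6A3 (-0.71), DUSP5 (-0.39), EEF2 (-0.19), ESPL1 (-0.77), FOXC2 (-1.22), FOXM1 (-0.59), MCM2 (-0.37), MKI67 (-1.06), MMP9 (-1.12), TCOF1 (-0.44), TK1 (-0.90) and UHRF1 (-0.42). It was larger for GAS5 (0.25) and TPT1 (0.21). Among genes that were lower in A375, the decrease in SK-MEL-28 was smaller for ABCC2 (0.50), ATP6V1A (0.32), FYB1 (0.80), GABARAPL2 (0.30), GPNMB (0.81), HIF1A (0.44), IFI16 (0.36), ITGA1 (0.90), LAMTOR3 (0.43), LDB2 (0.85), PLK2 (0.28), RPS27L (0.39), S100B (0.42), SAA2 (1.32), SCARB2 (0.27), SDHC (0.21), SERPINE2 (0.40), SLC38A2 (0.25), SPARC (0.35), SPRR2D (0.94), TCN1 (0.89) and TGFA (0.47). It was larger for ALDOC (-0.78), BNIP3 (-0.45), CA9 (-1.33), DDIT4 (-0.53), ITGA11 (-0.70), LDHA (-0.25), LOXL2 (-0.41), NDRG1 (-0.35), PDK1 (-0.52), PGK1 (-0.28) and VLDLR (-0.57). The 2 fold changes had opposite signs for DCT (1.82), JUN (-0.75), MAP1LC3B (0.32), MDM2 (0.51), MT-ATP6 (0.45), MT-CO1 (0.31), MTATP6P1 (-4.16), MUC5AC (-2.23), TNC (-0.72), TOP2A (-0.80) and VMP1 (0.34). In this order, the fold changes in SK-MEL-28 were 0.11, -0.23, 0.08, 0.07, 0.008, 0.08, -0.79, -0.16, -0.04, -0.32 and 0.07. Several were close to 0, so a difference in sign need not mean opposite responses. For MUC5AC the adjusted p in SK-MEL-28 was 0.874. Among the genes with opposite signs, DCT was near the filter on low counts, with at most 24 raw counts in A375, and MTATP6P1 shares a locus with another gene name. The genes that did not pass in A375 were GAPDH (-0.21), PKM (-0.36), SQSTM1 (0.42) and WNT5A (0.36).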

How the results depend on the processing

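The number of DE genes in A375 was 1109 and lay between 868 and 1144 under DESeq2, RLE size factors, library totals, both filters on low counts, one fit of all 12 libraries, rows of one name summed, the replicate block (1034) and the GC trend removed (888). It was 806 with the GC trend removed and the replicate block, of which 378 were higher. A test against a fold change of 1.5 left 168 DE genes, 77 higher and 91 lower. Leaving out single libraries gave 913 to 1202 DE genes and 3886 to 5231 genes past the adjusted p. The latter was 3343 with the GC trend removed and the replicate block, 1603 of them higher. Of the DE genes 52.5% were higher, and 41.6% with library totals (469 higher and 658 lower) and 46.1% with the GC trend removed (409 and 479). Of the genes past the adjusted p 50.8% were higher, and 39.7% with library totals (2215 higher and 3361 lower). Library totals moved the median of all genes from -0.01 to -0.05. The genes that differed between the cell lines numbered 1130, 1699 with DESeq2, 620 with the replicate block and 594 to 1315 without single libraries. The deviations of same-numbered libraries from their group means had correlations across genes of -0.03, -0.00 and 0.00. These values show no sign of pairing by replicate number, but 3 libraries a group are too few to exclude it. Of the 39 gene lists, 18 medians stayed within the spread between libraries with library totals, 23 with the GC trend removed (22 with the replicate block too), and all 39 under the other tools, filters and fits and the replicate block. The others follow, with the cause not tested. With library totals, the median log2 fold changes became 0.040 for the translation factor list, -0.066 for ribosome biogenesis, -0.25 for glycolysis and glucose uptake, -0.46 for other hypoxia-induced, -0.26 for sterol synthesis, -0.17 for fatty acid synthesis, 0.018 for amino acid response of ATF4, -0.15 for cytosolic tRNA synthetase, 0.092 for nucleotide synthesis and folate, -0.27 for lysosome, -0.099 for autophagy machinery, -0.14 for mTOR complexes and their regulators, -0.11 for p53 target, 0.014 for topoisomerase and adduct repair, 0.11 for G1 and E2F control, 0.032 for MHC class I presentation, -0.20 for integrin, -0.088 for proteasome, -0.091 for cytosolic and mitochondrial chaperone, -0.32 for endoplasmic reticulum chaperone and stress and 0.018 for BCL2 family. With the GC trend removed, with the replicate block or without, they were 0.12 for translation factor, 0.38 for other TOP, 0.029 (0.030 with the block) for ribosome biogenesis, -0.26 for glycolysis and glucose uptake, -0.34 (-0.31 with the block) for other hypoxia-induced, -0.080 with the block for fatty acid synthesis, -0.062 (-0.064 with the block) for amino acid response of ATF4, -0.039 for cytosolic tRNA synthetase, 0.10 (0.098 with the block) for topoisomerase and adduct repair, 0.54 for mitosis, 0.36 for EGR and AP-1 immediate early, 0.0087 (0.0088 with the block) for MHC class I presentation, -0.14 for collagen and matrix, -0.18 for integrin, -0.0093 (-0.0092 with the block) for cytosolic and mitochondrial chaperone, 0.0017 (0.0035 with the block) for BCL2 family and -0.34 (-0.35 with the block) for markers of other cell types. Leaving out single libraries gave medians of 0.071 to 0.098 for translation factor, -0.031 to 0.0048 for ribosome biogenesis, -0.44 to -0.36 for other hypoxia-induced, -0.25 to -0.19 for sterol synthesis, -0.10 to -0.050 for p53 target, -0.00086 to 0.081 for topoisomerase and adduct repair, 0.14 to 0.21 for G1 and E2F control, 0.061 to 0.22 for EGF and FGF ligands and receptors and 0.068 to 0.12 for MHC class I presentation. Among the named genes, 2 reversed with the GC trend removed, GAPDH (-0.12 in both fits) and JUND (-0.056, and -0.055 with the block). Over 3101 gene and setting pairs, 3019 kept their side of the threshold, 55 lost the call, 23 gained one and 4 reversed. A change of sign in a gene that passed in neither fit was counted as kept, as for GAPDH without single libraries (-0.01 to 0.05). Precision rests on 3 libraries a group. Genes with few counts have little power, as the 3.92% passing under 30 counts shows.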

Other observations

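Low counts limited what could be called in A375. Under 30 counts the median standard error of a log2 fold change was 0.45, against 0.05 at 3000 counts or more. DE calls were most frequent between 100 and 300 counts, at 11.4% of genes, where the median standard error was 0.15. Among abundant genes many passed with small changes, since the median size of change of those that passed was 0.27 at 3000 counts or more.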
